A study of Mus musculus with 6 samples.

Results

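Ribosome biogenesis genes code for the proteins that cut, modify, fold and export the precursors of the 2 ribosomal subunits. They were taken here as the 73 protein-coding genes, of 21397 genes in the deposited table, whose KEGG annotation holds the term Ribosome biogenesis in eukaryotes and does not hold the term Spliceosome. The rule reads this annotation alone. A single gene, Snu13, carries both terms and was left out, and 0 non-coding genes carry the first term. The RNA came from small intestinal organoids, miniature epithelia grown in culture from crypts of Fpr2f/f mice. In these mice the gene for the formyl peptide receptor FPR2 is flanked by loxP sites in both groups, and no Cre is named for these samples, so no deletion distinguishes the groups. By the study's methods the strain background is C57BL/6J and the mice were 8 to 12 weeks old. One group of 3 libraries received 1 μM MMK-1, a synthetic peptide that activates FPR2, for 5 days, and the other group of 3 libraries received the vehicle, 0.1% DMSO, up to the same day. In the MMK-1 samples the label for treatment writes the dose as 1 mM, whereas the protocol text and the methods write micromolar. Each sample is stated to hold organoids of 3 mice, and whether the MMK-1 and vehicle samples share mice is not given.

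A ribosome begins in the nucleolus, where RNA polymerase I copies the ribosomal DNA (rDNA) into a long precursor. The UTP-A, UTP-B and MPP10 complexes gather on it to form the small-subunit (SSU) processome. Small nucleolar ribonucleoproteins (snoRNPs) of the box C/D kind guide 2′-O-methylation of the RNA, and those of the box H/ACA kind guide pseudouridylation. Assembly factors, nucleases and GTPases then shape the 40S and 60S precursors, which leave the nucleus with the help of the exportin XPO1 and the GTPase RAN. In the intestinal crypt, stem and transit-amplifying cells divide rapidly and need a large supply of new ribosomes, whereas mature enterocytes of the villus no longer divide.

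The libraries held between 35512739 and 37537463 fragments, as recovered from the deposited FPKM values (fragments divided by the length of the gene and the size of the library). General epithelial markers summed to between 1713 and 2160 FPKM in the 6 libraries, and all mesenchymal markers were under a mean of 1 FPKM except Pdgfrb in the control libraries, at 1.10. MMK-1 replicate 3 stood apart from its group. The chi-square per degree of freedom between libraries, which is near 1 for counting noise alone, was 34.4 and 29.4 between it and MMK-1 replicates 1 and 2, against 3.46 between those replicates and at most 4.78 between control libraries. The members' counts of higher and lower calls, and those of the lists of other assembly factors and the MYC family, are therefore also given without this library.

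The ribosome biogenesis genes had higher FPKM in MMK-1-treated than in vehicle-treated organoids. FPKM is relative to the size of a library and is not an amount of RNA in the organoids. Summed over the 73 genes, the level was 1174, 1188 and 1191 FPKM among the controls and 1472, 1470 and 1549 FPKM among the MMK-1 libraries. The members' share of all FPKM lay between 0.256% and 0.258% in controls and between 0.325% and 0.342% with MMK-1. The groups did not overlap in either measure. Against the control mean on log2(FPKM + 1), the members tested had a median of 0.30, 0.33 and 0.35 in the MMK-1 libraries. All genes tested had a median of 0.12, 0.12 and 0.15. In such bulk samples, more cells of a type, more RNA of these genes per cell and less RNA of other genes cannot be told apart.

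Gene by gene, 70 of the 73 members passed the filter of a mean FPKM of at least 1 and entered limma's test on log2(FPKM + 1). With the p-values adjusted by Benjamini-Hochberg over all genes and a threshold of 0.05, MMK-1 raised 53 of them and lowered 2, while 15 did not pass. Over all 10551 genes tested, 48.5% were higher and 24.7% lower. The median log2 fold change of the members was 0.34, with quartiles of 0.16 and 0.46, and that of all genes tested was 0.13. Of the 70 members tested, 1, Rpp25, was at least 2-fold higher on the log2(FPKM + 1) scale, where 3.39% of all genes tested were. None of the 70 was 2-fold lower (0, by limma with an unadjusted p and by limma-voom), where 3.65% of all genes tested were. Control and MMK-1 values were fully separate in 57 members, 55 with MMK-1 above (50.5% of all genes tested) and 2 with MMK-1 below (26.3%).

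How many members were called depended on the scaling between libraries, with which the median of all genes moved. With upper-quartile scaling of the FPKM values, 46 members were higher and 7 lower, and all genes tested had 41.7% higher, 31.2% lower and a median of 0.06. With limma-voom and trimmed-mean (TMM) scaling of the recovered fragments, 42 members were higher and 10 lower, and all genes tested had 35.3% higher, 36.5% lower and a median near 0, at 0.0014. This fit differs from the others in its input and its model as well as its scaling. Among all calls, the share that was higher was 66.3%, 57.2% with upper-quartile scaling and 49.1% with limma-voom, and among the members' calls it was 96.4%, 86.8% and 80.8%. The distance of the members' median from that of all genes was 0.20, 0.20 and 0.22 in the 3 fits, and 55, 56 and 56 of the 70 members lay above the median of all genes. Without MMK-1 replicate 3, 53 members were higher and 5 lower, where 48.9% and 28.2% of all genes tested were. Rpp25l lost its call there, Csnk2a1 gained one, and Eif6, Gnl2 and Pop4 joined those lower. Without control replicate 2 they were 50 and 0, where 44.8% and 22.2% of all genes tested were (1 member lower at an unadjusted p under 0.05 in limma's test).

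**Figure D1:**
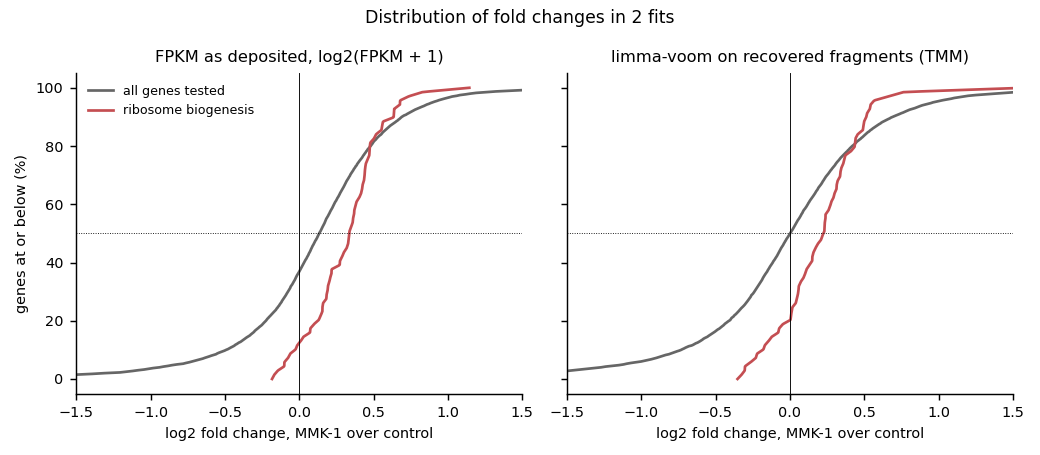
Cumulative share of genes (%) at or below each log2 fold change of MMK-1 over control, for the 70 ribosome biogenesis genes (red) and all 10551 genes tested (grey), with the FPKM values as deposited (left) and in the limma-voom fit to the recovered fragments (right). The members' median is 0.34 on the left and 0.23 on the right, those of all genes 0.13 and 0.0014, and the axis is limited to 1.5 in either direction.

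The members were then read in the order of assembly, with fold changes on the log2(FPKM + 1) scale and adjusted p-values from limma. Tcof1 encodes treacle, which assists RNA polymerase I at the rDNA and carries the name of Treacher Collins syndrome. Its level was 7.18, 7.40 and 6.34 FPKM in controls and 11.9, 11.8 and 13.2 FPKM with MMK-1. Every MMK-1 library lay above every control library, and Tcof1 rose (log2 fold change 0.74, standard error 0.067, adjusted p = 1.5e-05).

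All 5 members of the UTP-A group, which binds the growing precursor first, rose, where 48.5% of all genes tested did. Their median log2 fold change was 0.40. The largest change was that of Heatr1, a large scaffold protein also known as UTP10. Heatr1 had 4.01, 4.03 and 4.39 FPKM in controls and 6.005, 6.58 and 7.16 FPKM with MMK-1 (log2 fold change 0.56, standard error 0.066, adjusted p = 7.7e-05). The most abundant of the group was Wdr43, a beta-propeller protein, at 18.0, 16.4 and 16.6 FPKM in controls and 22.7, 22.6 and 23.1 FPKM with MMK-1 (log2 fold change 0.40). Both genes kept the groups apart.

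In the UTP-B complex, which joins next, 5 of 6 members rose, where 48.5% of all genes tested did, with a median of 0.32. Utp18 had 8.85, 8.69 and 8.53 FPKM in controls and 13.4, 13.8 and 15.02 FPKM with MMK-1 (log2 fold change 0.64, standard error 0.051, adjusted p = 7.1e-06). Its lowest MMK-1 library was well above its highest control library. Tbl3, the most abundant of the complex, had 18.4, 18.8 and 18.5 FPKM in controls and 27.9, 26.1 and 29.9 FPKM with MMK-1 (log2 fold change 0.56, adjusted p = 1.9e-05). Of the exon bases of Tbl3, 37.3% are shared with Noxo1 on the opposite strand, and the strand setting of the counting is not given in the sources used here.

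The group of UTP-C, Rrp7a and casein kinase 2 had 2 of 5 members higher and 1 lower, near the 48.5% and 24.7% of all genes tested, and a median of 0.08. The counts were 1 and 1 with upper-quartile scaling and 1 and 2 with limma-voom. Csnk2a2, a catalytic subunit of casein kinase 2, rose from 4.62, 4.73 and 5.14 FPKM to 6.70, 6.48 and 6.65 FPKM (log2 fold change 0.39, adjusted p = 0.00016). Nol6, a large UTP-C protein, had 11.98, 12.5 and 11.7 FPKM in controls and 10.6, 9.92 and 11.1 FPKM with MMK-1. Its groups did not overlap but lay close together, and Nol6 fell by 0.18 on the log2 scale (standard error 0.052, adjusted p = 0.012), a call that was lost without control replicate 2. Rrp7a, the most abundant gene here, had 23.1, 23.6 and 24.95 FPKM in controls and 22.4, 22.7 and 25.4 FPKM with MMK-1. Its groups overlapped under FPKM (adjusted p = 0.71), while with limma-voom it was lower (log2 fold change -0.18, adjusted p = 0.016).

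The snoRNP proteins rose as whole complexes, 3 of 3 for box C/D (median 0.46) and 4 of 4 for box H/ACA (median 0.38). Of all genes tested, 48.5% rose. Fbl encodes fibrillarin, the methyltransferase of box C/D particles. It had 56.5, 55.7 and 55.9 FPKM in controls and 77.7, 74.4 and 80.5 FPKM with MMK-1 (log2 fold change 0.46, standard error 0.041, adjusted p = 1.4e-05). Nop56, a core scaffold of the same particle, rose from 20.2, 18.8 and 19.1 FPKM to 26.1, 26.5 and 29.6 FPKM (log2 fold change 0.48). Dkc1 encodes dyskerin, the pseudouridine synthase of box H/ACA particles, which is also a part of telomerase. Dkc1 had 11.98, 11.8 and 12.8 FPKM in controls and 19.7, 20.5 and 20.1 FPKM with MMK-1, with tight and well separated groups (log2 fold change 0.68, standard error 0.046, adjusted p = 2.5e-06). Nop10, a small subunit of the same particle, changed less, from 61.2, 65.8 and 66.0 FPKM to 73.1, 74.6 and 75.7 FPKM (log2 fold change 0.21, adjusted p = 0.0022). Its call was lost with limma-voom (log2 fold change 0.06, adjusted p = 0.27) and stayed with upper-quartile scaling (0.13, adjusted p = 0.018).

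Snu13, which binds box C/D RNAs and also the U4 RNA of the spliceosome and was left out by the rule, had 52.4, 54.0 and 55.3 FPKM in controls and 63.3, 62.8 and 65.6 FPKM with MMK-1. Its log2 fold change was 0.24 (adjusted p = 0.0006), below those of the 3 box C/D proteins kept.

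Of the 10 members in the MPP10 complex and the late SSU processome, 8 rose, with a median of 0.31. Of all genes tested, 48.5% rose. Emg1 encodes a methyltransferase that modifies a single base of the small-subunit RNA. It had 45.1, 46.3 and 46.5 FPKM in controls and 69.7, 71.8 and 81.3 FPKM with MMK-1. All MMK-1 libraries were far above the controls, replicate 3 the farthest, and the log2 fold change of 0.68, with a standard error of 0.058 (adjusted p = 1.0e-05), was 0.61 without replicate 3. The paralogs of Utp14 differed. Utp14a, chosen after its values were seen, rose by a log2 fold change of 0.42 (adjusted p = 9.0e-05), whereas that of Utp14b, chosen likewise, was -0.10 (adjusted p = 0.17), with upper-quartile scaling -0.16 (adjusted p = 0.046) and with limma-voom -0.30 (adjusted p = 0.018). The difference between them was not tested.

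In 40S maturation, the later steps on the small subunit, 2 of 4 members were higher and 0 lower (by limma, also at an unadjusted p), with a median of 0.10, and the share higher was near the 48.5% of all genes tested. With limma-voom 1 was higher and 2 lower. Nob1, the nuclease that makes the final cut of the small-subunit RNA, had 24.6, 23.1 and 25.3 FPKM in controls and 28.7, 30.4 and 29.7 FPKM with MMK-1 (log2 fold change 0.27, standard error 0.048, adjusted p = 0.00078). The other member that was higher, Ak6, an adenylate kinase (log2 fold change 0.19, adjusted p = 0.0065), lost its call with limma-voom (0.06, adjusted p = 0.50), and 59.1% of its exon bases are shared with Rad17 on the opposite strand and Taf9 on the same strand. The kinase genes Riok1 and Riok2, chosen after their values were seen, had log2 fold changes of -0.01 and 0.01 (adjusted p = 0.82 and 0.84), and with limma-voom both were lower (-0.17 and -0.14, adjusted p = 0.038 and 0.030).

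On the large subunit, of the 8 genes of nucleolar 60S assembly and its AAA-ATPases, 7 rose, with a median of 0.40. Gnl3 encodes nucleostemin, a nucleolar GTPase first described in stem cells. Gnl3 had 28.6, 28.4 and 26.9 FPKM in controls and 43.6, 44.9 and 43.5 FPKM with MMK-1, without overlap (log2 fold change 0.64, standard error 0.042, adjusted p = 2.1e-06). In cytoplasmic 60S maturation, 2 of 5 members were higher and 1 lower, not above the 48.5% and 24.7% of all genes tested, with a median of 0.10, below the 0.13 of all genes. With upper-quartile scaling and with limma-voom 2 were higher and 2 lower. With limma-voom the medians of cytoplasmic 60S maturation, of 40S maturation and of the group of UTP-C, Rrp7a and casein kinase 2 were below 0 (-0.05, -0.04 and -0.07). The difference between these groups of genes was not tested.

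Among the cytoplasmic factors, the GTPase gene Lsg1 rose from 11.2, 10.8 and 8.97 FPKM to 13.1, 13.0 and 14.4 FPKM (log2 fold change 0.36, adjusted p = 0.0030). Eif6 blocks the joining of subunits until it is released from the 60S particle, and its levels were 87.1, 90.7 and 93.0 FPKM in controls and 87.0, 80.4 and 89.6 FPKM with MMK-1. The groups overlapped (log2 fold change -0.08, adjusted p = 0.20), and Eif6 was lower with upper-quartile scaling (-0.16, adjusted p = 0.015) and with limma-voom (-0.23, adjusted p = 0.0021). Sbds, whose product releases EIF6 together with a GTPase and carries the name of Shwachman-Bodian-Diamond syndrome, had 34.3, 35.1 and 34.0 FPKM in controls and 29.6, 29.0 and 33.3 FPKM with MMK-1. Its groups did not overlap, with MMK-1 replicate 3 closest to the controls. Sbds fell by 0.17 on the log2 scale (standard error 0.055, adjusted p = 0.022), and this call was lost when any library other than MMK-1 replicate 3 was left out, and in the fit without the filter (adjusted p = 0.052).

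**Figure D2:**
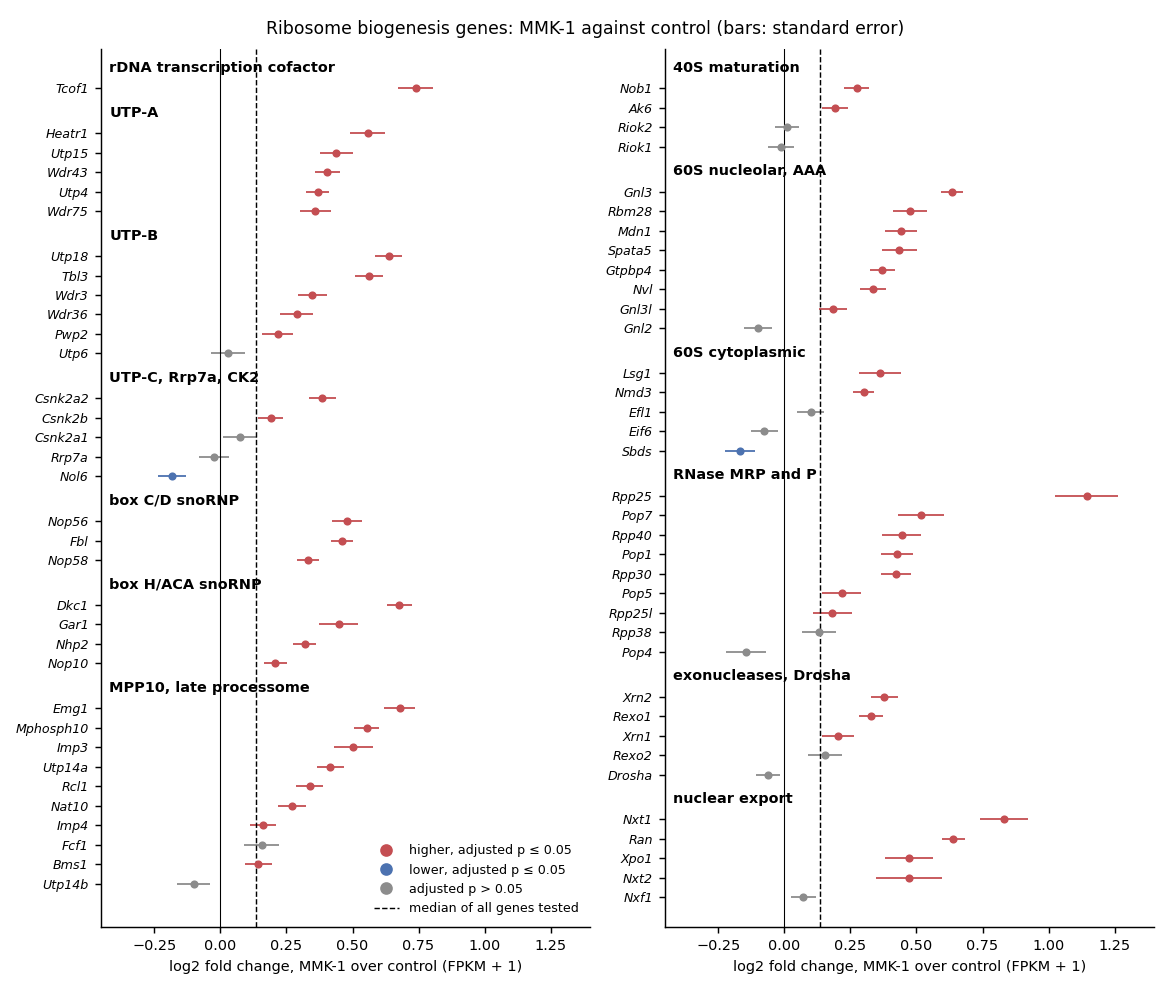
Log2 fold change of MMK-1 over control on log2(FPKM + 1), with the standard error as bars, for the 70 members tested, grouped by role. Red marks the 53 members that were higher, blue the 2 that were lower (Nol6 and Sbds) and grey the 15 that did not pass an adjusted p of 0.05, and the dashed line is the median of all genes tested, 0.13.

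RNase MRP cuts the precursor between the small- and large-subunit RNAs, and RNase P, which shares most of its proteins, trims transfer RNAs. Of their 9 genes, 7 rose, where 48.5% of all genes tested did, with a median of 0.42. Rpp25, a subunit that binds the RNA of both enzymes, made the largest change of all members, from 0.793, 1.17 and 1.41 FPKM to 3.22, 4.28 and 3.54 FPKM. All MMK-1 libraries were far above the highest control library. Rpp25 rose by 1.14 on the log2 scale, with a standard error of 0.12 (adjusted p = 3.4e-05), and the plain ratio of the means was 3.27, on 40, 59 and 71 fragments among the controls and 154, 207 and 177 among the MMK-1 libraries. Pop4, the most abundant of the group, had 21.0, 19.9 and 19.7 FPKM in controls and 16.9, 17.0 and 20.8 FPKM with MMK-1. Replicate 3 reached the control range while the other MMK-1 libraries lay below it (log2 fold change -0.14, adjusted p = 0.12). Without replicate 3, Pop4 was lower (-0.24, adjusted p = 0.00057), as it was with upper-quartile scaling (-0.22, adjusted p = 0.022) and with limma-voom (-0.30, adjusted p = 0.0076).

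Of the 5 tested members among the exonucleases and Drosha, 3 rose, where 48.5% of all genes tested did, with a median of 0.20. With upper-quartile scaling and with limma-voom 2 were higher and 1 lower, Drosha, the nuclease of microRNA precursors (log2 fold change -0.06, adjusted p = 0.25 with the FPKM values as deposited, and with limma-voom -0.22, adjusted p = 0.0020). Xrn2, a nuclear exonuclease that trims precursor ends, rose from 9.62, 8.71 and 9.08 FPKM to 12.4, 12.5 and 11.6 FPKM (log2 fold change 0.38, adjusted p = 0.00019). Rexo2, a small exonuclease of oligonucleotides, had 17.5, 19.0 and 19.0 FPKM in controls and 19.1, 20.5 and 22.6 FPKM with MMK-1 (log2 fold change 0.16, adjusted p = 0.054). Its groups were separated by a narrow gap only. Without single libraries the log2 fold change of Rexo2 ran from 0.095 to 0.21. Rexo2 was higher, at an adjusted p of at most 0.05, without MMK-1 replicate 1 and with replicate numbers as a block.

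The export genes included the most abundant member. Ran, the GTPase whose loaded form drives nuclear export and which serves many other cargoes, had 95.2, 95.9 and 97.5 FPKM in controls and 149.9, 144 and 158 FPKM with MMK-1. The control libraries lay within a narrow band and every MMK-1 library was far above it. Ran rose by 56.4% in mean FPKM (log2 fold change 0.64, standard error 0.043, adjusted p = 2.4e-06). Nxt1, a partner of messenger RNA exporters, had 6.16, 6.63 and 8.16 FPKM in controls and 13.3, 12.3 and 13.9 FPKM with MMK-1. Its groups were well apart (log2 fold change 0.83, standard error 0.090, adjusted p = 4.3e-05). In all, 4 of 5 tested export genes rose, where 48.5% of all genes tested did, with a median of 0.47, and 3 with limma-voom. In the limma-voom fit, 35.3% of all genes tested were higher and 36.5% lower. Of the other groups of genes, limma-voom gave 6 higher and 1 lower in the MPP10 complex and late SSU processome, 6 and 1 in nucleolar 60S assembly, 5 and 1 in RNase MRP and RNase P, and 4 higher in UTP-B and 3 in box H/ACA, with the counts of UTP-A and box C/D unmoved. For each of these genes alone, an exact two-sided permutation test of 3 libraries against 3 cannot give a p below 0.1.

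**Figure D3:**
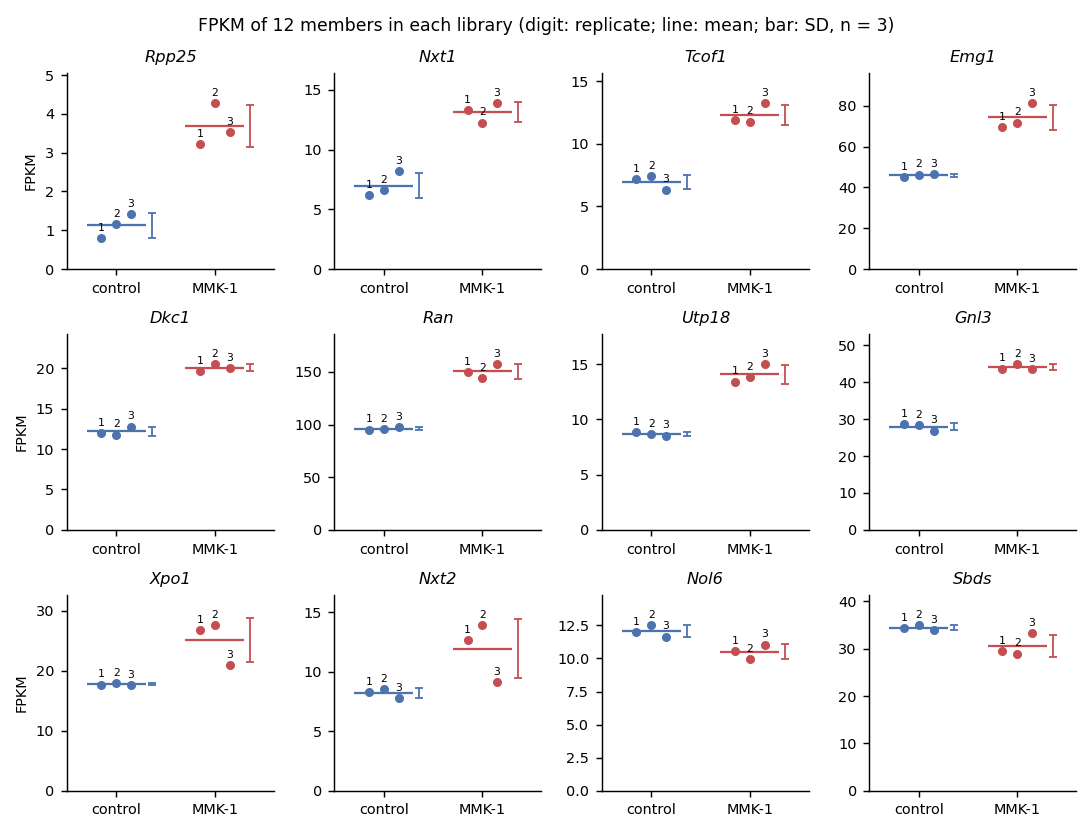
FPKM of 12 members in each library, with controls in blue and MMK-1 in red, the replicate number beside each point, the group mean as a line and the SD (n = 3) as a bar, on axes that start at 0. The members were chosen among those whose groups do not overlap, and Xpo1 and Nxt2 after their values were seen. The groups are therefore apart in all 12 panels by choice. MMK-1 is lower for Nol6 and Sbds. In the panels of Xpo1 and Nxt2, MMK-1 replicate 3 lies nearer to the controls than the other MMK-1 libraries.

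Relative to its group, MMK-1 replicate 3 lay lowest in members whose transcripts are poor in G and C. Xpo1, the export receptor of both pre-subunits, had 17.7, 17.9 and 17.5 FPKM in controls and 26.8, 27.6 and 21.0 FPKM with MMK-1 (log2 fold change 0.47, adjusted p = 0.0014). Nxt2, a paralog of Nxt1, had 8.28, 8.57 and 7.77 FPKM in controls and 12.7, 13.95 and 9.16 FPKM with MMK-1 (log2 fold change 0.47, adjusted p = 0.0079). Both were chosen after their values were seen, and the call of Nxt2 was lost with limma-voom (log2 fold change 0.36, standard error 0.15, adjusted p = 0.063) and stayed with upper-quartile scaling (0.40, adjusted p = 0.027). Replicate 3 was the lowest MMK-1 library for both, yet it stayed above all controls. Their GC contents were 40.6% and 36.2%, against a median of 48.0% over the members tested. Across the 70 members, the deviation of replicate 3 from replicates 1 and 2 rose with GC content (Pearson's r = 0.46, Spearman's rho = 0.40), as it did across 10068 coding genes (r = 0.53, rho = 0.49). These points share 3 libraries and are given as a description. The fold changes of the members had no such relation to GC content (r = 0.03).

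**Figure D4:**
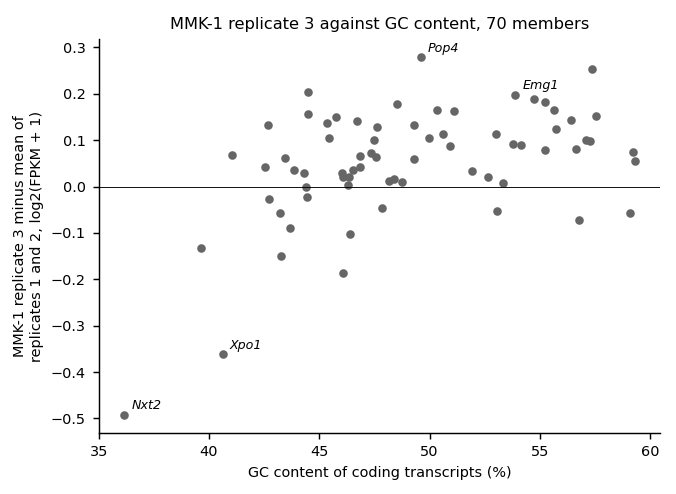
Deviation of MMK-1 replicate 3 from the mean of MMK-1 replicates 1 and 2, on log2(FPKM + 1), against the GC content (%) of the coding transcripts, 1 point for each of the 70 members. Nxt2 (36.2% GC) and Xpo1 (40.6% GC) lie lowest, at -0.49 and -0.36, and Pop4 lies highest, at 0.28.

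The 3 members under the filter were low in FPKM, and Nxf7 and Rasl2-9 also in fragments. Nxf7, an mRNA exporter paralog, had 48, 41 and 27 fragments among the controls and 75, 89 and 82 among the MMK-1 libraries. Rexo5, a nucleolar exonuclease, had 239, 231 and 246 fragments among the controls and 163, 184 and 144 among the MMK-1 libraries. Rasl2-9, an intronless relative of Ran that could share reads with it, had 18, 7 and 8 fragments among the controls and 2, 0 and 0 among the MMK-1 libraries, where a count of 0 allows up to 3. In the limma fit without the filter, Nxf7 was higher (log2 fold change 0.43, adjusted p = 0.0034), and Rexo5 (-0.14, adjusted p = 0.012) and Rasl2-9 (-0.34, adjusted p = 0.025) were lower. Each of the 3 had groups that did not overlap.

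KEGG's term covers only a share of the known assembly factors, and further lists of the same process were read beside it, against the 48.5% higher and 24.7% lower of all genes tested. Of 15 tested genes of RNA polymerase I and its factors, 8 were higher (53.3%) and 2 lower, and the median log2 fold change was 0.24. The share higher was near that of all genes tested, and 4 were lower with upper-quartile scaling (8 higher), 5 with limma-voom (7 higher) and 4 without MMK-1 replicate 3 (8 higher). The subunit genes Polr1c (0.43, adjusted p = 0.00017) and Polr1b (0.38, adjusted p = 0.00056) rose, and Taf1b, of the promoter-binding factor SL1, fell from 1.53 ± 0.049 to 1.06 ± 0.18 FPKM (SD, n = 3, adjusted p = 0.0055). Polr1h, a small subunit, had a log2 fold change of -0.15 (adjusted p = 0.056) and was lower with upper-quartile scaling (adjusted p = 0.013) and with limma-voom (adjusted p = 0.013). Of 29 other 40S factors, 16 were higher (55.2%, also near all genes) and 3 lower, with a median of 0.25. The counts were 15 and 6 with upper-quartile scaling, 12 and 9 with limma-voom, and 16 and 5 without MMK-1 replicate 3. Bysl (0.67) and Noc4l (0.57) rose, whereas Rrp36 (-0.29) and the helicase gene Ddx49 (-0.28) fell.

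Of 47 other 60S factors, 32 were higher (68.1%) and 4 lower, with a median of 0.24. The counts were 26 and 8 with upper-quartile scaling, 22 and 9 with limma-voom, and 30 and 7 without MMK-1 replicate 3. Rrs1 rose from 11.0 ± 0.50 to 18.0 ± 0.96 FPKM (SD, n = 3) and Wdr74 from 20.3 ± 0.72 to 32.4 ± 1.80 FPKM, whereas Las1l, of the nuclease that cuts the second internal spacer, and Sdad1 both fell by 0.21 on the log2 scale. Of 13 genes of the RNA exosome, the nuclease that trims the 5.8S RNA, 8 were higher (61.5%) and 2 lower, with a median of 0.30, and 2 were lower in each of those other fits too, with 8, 6 and 9 higher. Exosc8 (0.69) and Exosc2 (0.56) rose, and Exosc9 (-0.27) and the catalytic Exosc10 (-0.26) fell. Subunits of the same complex thus moved in opposite directions.

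MYC binds the E-box CACGTG and is known to drive ribosome biogenesis genes. The list of its family also holds genes of partners and competitors of MYC, so its counts and median pool unlike roles. Of its 10 members, 4 were higher and 3 lower, near the 48.5% and 24.7% of all genes tested, with a median of -0.03. The counts were 4 and 4 with upper-quartile scaling, 3 and 5 with limma-voom, and 4 and 4 without MMK-1 replicate 3. Myc itself had 17.6, 17.2 and 17.2 FPKM in controls and 20.9, 20.8 and 23.1 FPKM with MMK-1 (log2 fold change 0.30, adjusted p = 0.00058). Mycl rose from 2.35 ± 0.10 to 6.70 ± 0.46 FPKM (SD, n = 3, log2 fold change 1.20), while Mxd1, whose product competes with MYC for its partner, fell from 8.42 ± 0.14 to 5.47 ± 0.26 FPKM and Mlx, a partner of MYC-related factors, from 47.3 ± 1.83 to 35.9 ± 2.27 FPKM.

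The proteins of the finished ribosome were read beside the genes that build it. Over all genes tested, 48.5% were higher and 24.7% lower, and with limma-voom 35.3% and 36.5%. Of 84 tested genes of cytosolic ribosomal proteins, 40 were higher (47.6%, near that of all genes) and 2 lower (2.38%), with a median of 0.12. With limma-voom 10 of them were higher (11.9%) and 26 lower (31.0%), with a median of -0.03. Of 78 genes of mitochondrial ribosomal proteins, 31 were higher (39.7%) and 9 lower (11.5%), with a median of 0.10. With limma-voom 15 of them were higher (19.2%) and 20 lower (25.6%), with a median of -0.05. Both medians lay below those of all genes tested in the same fits, and that of the ribosome biogenesis genes was 0.34 and 0.23. The spliceosome genes, which also act in the nucleus, had 89 of 125 higher (71.2%) and 4 lower (3.2%), with a median of 0.30. With limma-voom 67 of them were higher (53.6%) and 21 lower (16.8%), with a median of 0.16. These figures are descriptions, and no test compared the groups of genes.

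**Figure D5:**
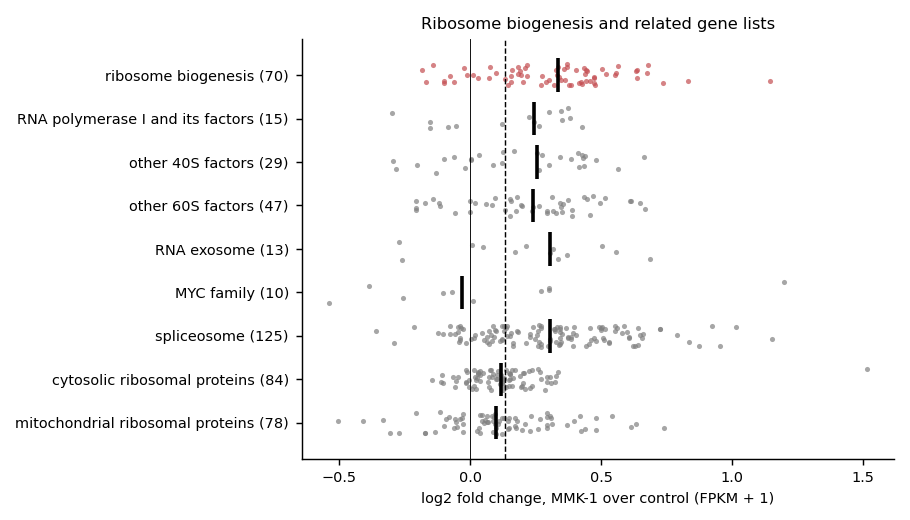
Log2 fold change of MMK-1 over control on log2(FPKM + 1) for each tested gene of the ribosome biogenesis set (red) and of related lists (grey), with the number of genes in brackets, the median as a black bar and the median of all genes tested, 0.13, as a dashed line. The medians are 0.34 for ribosome biogenesis, 0.30 for the RNA exosome and the spliceosome, 0.24 to 0.25 for the other assembly lists, -0.03 for the MYC family, and 0.12 and 0.10 for cytosolic and mitochondrial ribosomal proteins.

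Markers of several cell types moved in the same comparison, in which 48.5% of all genes tested were higher and 24.7% lower. The 8 cycling-cell markers, among them Mki67 and Mcm2, were all higher, with a median log2 fold change of 0.95 and a summed level of 198 to 201 FPKM in controls and 323 to 346 FPKM with MMK-1. All 7 stem cell markers (median 1.80) and all 6 Paneth cell markers (1.74) were higher, and 9 of 10 enterocyte markers were lower (-0.90), their sum being 9173 to 9294 FPKM in controls and 5388 to 5793 FPKM with MMK-1. Of the others, 4 of 6 goblet cell markers were higher and 2 lower, and 5 of 6 enteroendocrine markers were higher. Among general epithelial markers, 3 of 6 were higher and 2 lower, near the shares of all genes tested. With limma-voom, where 35.3% of all genes tested were higher and 36.5% lower, the goblet cell counts were 2 and 2 and the general epithelial counts 2 and 3. In that fit the counts of cycling-cell, stem cell, Paneth cell and enteroendocrine markers higher and of enterocyte markers lower were as given. Tuft cell markers summed to at most 1.68 FPKM in any library and mesenchymal markers to at most 1.41, and none of these genes passed the filter. The 6 immune markers summed to 3.16 to 3.40 FPKM in controls and 1.54 to 1.68 with MMK-1. Of these 6, only Itgam was tested. Itgam fell from a mean of 2.36 to 0.94 FPKM (log2 fold change -0.79, adjusted p = 9.2e-06 by limma), and the other immune markers each had a mean under 1 FPKM. None of these markers was at 0 in all libraries. The part of these shifts in the changes of the ribosome biogenesis genes was not tested.

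The members shared features that the rule did not use. The GO term nucleolus was held by 47 of the 73 members (64.4%), against 6.49% of the 10181 protein-coding genes tested, and the GO term rRNA processing by 34 (46.6%), against 1.43%. The small-subunit processome term was held by 26 (35.6%), against 0.717%. Both kinds of annotation come from the same literature and are not independent of the KEGG term. A gene for a small nucleolar or Cajal body RNA lay inside 5 members on the same strand, namely Dkc1, Gnl3, Nop56, Nop58 and Wdr43 (6.85%, against 2.01% of coding genes tested). All 5 host genes were higher with MMK-1, where 53 of the 70 members tested and 48.5% of all genes tested were. The small RNAs themselves were not analysed here. The median control level of the members tested was 9.91 FPKM, close to the 9.53 FPKM of coding genes tested.

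Because most members moved the same way, their promoters were read for letters that known factors bind. RefSeq promoter windows of GRCm38.p6, from 250 bases before to 50 after each start, were matched for 61 of the 73 members. The E-box CACGTG, which reads the same on both strands, was found in 13 of the 61 windows (21.3%), against 12.5% of coding genes tested and 8.09% of all promoters. The ETS motif CCGGAAG was found on either strand in 21 windows (34.4%), against 22.3% and 9.93%, and the GC box GGGCGG in 40 (65.6%), against 70.3% and 38.2%. The palindromic NRF1 motif was found in 1 window (1.64%, against 2.60% and 1.07%), that of Ran, and the TATA motif TATAAA in 2 (3.28%, against 8.63% and 15.7%). A match is a description of letters and not of a bound factor.

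Members with and without the E-box or the ETS motif had close medians of fold change. The median log2 fold change was 0.33 for the 12 tested members with an E-box and 0.35 for the 46 without. It was 0.36 for the 20 with the ETS motif and 0.35 for the 38 without, and 0.37 for the 38 with a GC box and 0.27 for the 20 without. No test was made of these differences.

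The 250 bases before the start are shown for 6 members, chosen after their values were seen, to set both kinds side by side. Ran, Utp18 and Emg1 rose and hold some of these letters, and Imp3, of the MPP10 complex, rose (log2 fold change 0.50) and holds none. Rrp7a was not higher and holds an E-box and a GC box, and Pop4 was not higher and holds none of the motifs. They are written 5′ to 3′ along the strand of the gene, and capitals mark every E-box, ETS, NRF1, GC box or TATA match on either strand, so that CCGCCC is a GC box read on the other strand. No match of one motif overlaps one of another in these 6 stretches. The stretch of Ran lies on chr5:129019906-129020155 (plus strand, GRCm38.p6) and has an E-box that begins 118 bases before the start, the NRF1 motif at 205 bases and 3 GC boxes.
Ran: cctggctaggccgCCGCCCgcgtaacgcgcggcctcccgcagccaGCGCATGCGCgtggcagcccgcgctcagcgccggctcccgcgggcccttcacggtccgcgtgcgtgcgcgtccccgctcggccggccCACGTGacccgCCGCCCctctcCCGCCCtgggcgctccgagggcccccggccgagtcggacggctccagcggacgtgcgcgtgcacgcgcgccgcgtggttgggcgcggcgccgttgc
That of Utp18 lies on chr11:93885767-93886016 (minus strand) and has an E-box at 20 bases before the start, an ETS motif at 106 and a GC box at 70.
Utp18: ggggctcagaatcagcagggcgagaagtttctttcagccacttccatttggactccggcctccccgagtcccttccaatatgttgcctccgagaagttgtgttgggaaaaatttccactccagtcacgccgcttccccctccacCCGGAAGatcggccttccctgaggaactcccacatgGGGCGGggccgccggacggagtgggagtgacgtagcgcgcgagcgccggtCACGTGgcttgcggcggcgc
That of Emg1 lies on chr6:124712179-124712428 (minus strand) and has ETS motifs at 120 and 44 bases and 3 GC boxes.
Emg1: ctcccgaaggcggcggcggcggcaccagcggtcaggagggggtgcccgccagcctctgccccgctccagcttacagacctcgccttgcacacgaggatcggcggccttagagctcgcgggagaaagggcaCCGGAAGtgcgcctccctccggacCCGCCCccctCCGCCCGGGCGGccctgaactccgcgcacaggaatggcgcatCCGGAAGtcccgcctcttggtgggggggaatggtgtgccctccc
That of Imp3 lies on chr9:56937250-56937499 (plus strand), with none of the 5 motifs.
Imp3: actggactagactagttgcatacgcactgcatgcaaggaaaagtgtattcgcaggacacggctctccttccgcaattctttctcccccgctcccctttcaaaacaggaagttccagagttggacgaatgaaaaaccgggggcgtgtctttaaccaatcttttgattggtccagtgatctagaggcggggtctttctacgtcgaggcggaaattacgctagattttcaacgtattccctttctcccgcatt
That of Rrp7a lies on chr15:83122802-83123051 (minus strand) and has an E-box at 208 bases before the start and a GC box at 25.
Rrp7a: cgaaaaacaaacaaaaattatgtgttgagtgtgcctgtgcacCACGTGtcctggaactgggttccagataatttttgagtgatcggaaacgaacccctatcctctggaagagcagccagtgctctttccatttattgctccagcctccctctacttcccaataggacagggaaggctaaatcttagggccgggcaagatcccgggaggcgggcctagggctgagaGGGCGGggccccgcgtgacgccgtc
That of Pop4 lies on chr7:38271349-38271598 (minus strand), and it has none of the 5 motifs.
Pop4: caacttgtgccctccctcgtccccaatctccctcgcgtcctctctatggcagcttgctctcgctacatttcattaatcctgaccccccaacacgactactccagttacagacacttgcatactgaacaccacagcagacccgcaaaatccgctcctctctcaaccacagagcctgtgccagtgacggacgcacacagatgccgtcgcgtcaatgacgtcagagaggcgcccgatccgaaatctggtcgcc
By the choice of these 6 members, matches stood before members that rose and before one that did not, and the same held for stretches without a match.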

How the data were processed

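RNA-seq with 150-bp paired-end reads was performed on 6 samples. The deposited values are FPKM, computed by the authors per gene. The submitters' processing notes name HISAT2, HTSeq, R 3.2.0, DESeq2 and mm10, and the strand setting of the counting is not given in the sources used here. The limma-trend fit (limma 3.58.1, R 4.3.3) used log2 of FPKM plus a pseudocount of 1 and kept 10551 genes, those whose FPKM averaged 1 or more over the 6 libraries. This scale understates the fold changes of low genes. P-values were adjusted by Benjamini-Hochberg over all genes tested, and they measure the spread between samples, whose separate cultures are not described. A 2-fold call needed a fold change of 2 and p of at most 0.05. Whole fragments were recovered from the FPKM values (tolerance 0.002 of a whole number) for every gene above 0, and 99.7% of each total lay on listed genes. They entered limma-voom with TMM scaling. Fragments and their limits cover counting error only.

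Members, role groups and lists were chosen with earlier results of these data known. Named genes were members at a fold change of at least 2, the 8 largest rises and 8 largest falls (2 qualified) without overlap, the most abundant and the most changed member of each role group, all members not tested, and the 2 largest changes in each direction of each list. The lists were RNA polymerase I and its factors, other 40S factors, other 60S factors, the RNA exosome, the MYC family and cell type markers. Cytosolic ribosomal proteins were taken by symbol (Rpl, Rps), without S6 kinases, Rps19bp1, Rps23rg1 and genes named as pseudogenes. Of the genes in the lists, Exosc6 was not matched by symbol and was not analysed here. Coordinates and promoters came from RefSeq GRCm38.p6, and exon overlap, GC content and small RNA genes from GENCODE vM21, which uses the same build as mm10. Libraries of the same replicate number did not deviate together (correlations 0.03, -0.04 and 0.03), so no block was used in the tests reported. The fits were tested on simulated data. Python 3.11.15 with numpy 2.4.6, pandas 2.3.3 and matplotlib 3.10.9 was used.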

Additional observations from a re-analysis of the deposited data

How the results depend on the processing

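Upper-quartile scaling, limma-voom on fragments, no filter on low values, a pseudocount of 0.1, a replicate block and the removal of each library in turn were compared with the values reported. The number of members higher stayed within 1.5 times 53 under all of them (42 to 54). The number lower was 2 and became 7 with upper-quartile scaling, 10 with limma-voom and 0 to 5 without single libraries, 5 of them without MMK-1 replicate 3 (Eif6, Gnl2 and Pop4 added) and 0 without control replicate 2 in limma's test (1, Nol6, at an unadjusted p under 0.05). Nol6 and Sbds each lost their call without single libraries, and Sbds also without the filter (adjusted p = 0.052 in limma's test), whereas both were lower with upper-quartile scaling and limma-voom. The members' median of 0.34 became 0.26 with upper-quartile scaling, 0.37 with a pseudocount of 0.1 and 0.23 with limma-voom. That of all genes, 0.13, became 0.064 with upper-quartile scaling, 0.010 without the filter, 0.0014 with limma-voom, and 0.11 to 0.14 without single libraries. Without single libraries, the MYC family's median ran from -0.042 to 0.0056, positive without MMK-1 replicate 2, and the log2 fold change of Rrp7a from -0.080 to 0.0073, positive without MMK-1 replicate 1 or control replicate 3 (0.0055). The replicate numbers did not pair the samples, and with the replicate block 54 members were higher and 2 lower, with Rpp25l lost and Fcf1 and Rexo2 gained. The scalings move the median of all genes by construction, and the other causes were not tested.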
